A study of Mus musculus with 12 samples.

Results

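The 32 genes described here code for the sensors of the unfolded protein response, the chaperones and folding enzymes of the endoplasmic reticulum (ER), the machinery of ER-associated degradation and the protein channel of the ER membrane. They were taken by symbol from the 24532 genes of the deposited table, and all 32 had a row there and passed the filter on low counts, which kept 14038 genes. RNA-seq was done on livers of male C57BL/6 mice, 3 per group, with 1 library per liver. The Ahr HKO mice carried Ahr alleles with loxP sites around exon 2 together with Cre under the albumin promoter, which is active in hepatocytes, so other liver cells should have kept Ahr, and the WT mice were littermates with the same floxed alleles and no Cre. From an age of 10 to 12 weeks, mice of each genotype received either a control liquid diet (con) or the Lieber-DeCarli diet (EtOH), which held 5% ethanol by volume and drew 36% of its calories from it, for 5 weeks. Genotype and diet together give 4 groups. AhR is a ligand-activated transcription factor, and the design asks how its loss in hepatocytes changes the liver transcriptome with and without alcohol.

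The ER of a hepatocyte folds most of the proteins that the liver secretes into blood. When unfolded proteins build up, 3 sensors in the ER membrane respond. IRE1 (Ern1) splices the Xbp1 mRNA, PERK (Eif2ak3) phosphorylates the initiation factor eIF2 and slows translation, and ATF6 (Atf6) is cut in the Golgi to release a transcription factor. Spliced XBP1 and cleaved ATF6 are known to induce chaperones and degradation genes through the ER stress response element (ERSE) of their promoters. Counts per gene cannot separate spliced from unspliced Xbp1, nor show the phosphorylation or cleavage of a sensor.

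The promoter sequences are shown because the ERSE is the classical link between the sensors and their target genes. RefSeq promoter windows of GRCm38.p6, from 250 bases before to 50 bases after each start site, were at hand for 26 of the 32 genes. Derl1, Hspa13, Atf6, Sec61a1, Hyou1 and Manf had no window in that table. The ERSE was searched on both strands as CCAAT and CCACG separated by 9 bases of any kind, without mismatches. It was present in 9 of the 26 genes, Hspa5, Hsp90b1, Calr, Canx, Creld2, Pdia6, Dnajc3, Syvn1 and Derl3, against 0.119% of all 32851 windows. ERSE-II, ATTGG followed by CCACG after 1 base, was present in Herpud1 and Dnajb11, against 0.0365% of windows. Each stretch below is on the strand of its gene, 5′ to 3′, in GRCm38.p6, with both parts of the element in capitals, which read CGTGG and ATTGG where the element lies in the opposite orientation. For Hspa5, which codes for the chaperone BiP, the element begins 65 bases before the start site, in chr2:34772009-34772059 on the plus strand. Hsp90b1 holds 1 in each orientation, 212 and 107 bases before the start, in chr10:86705622-86705672 on the minus strand and chr10:86705517-86705567 on the minus strand. For Creld2 it begins 126 bases before the start, in chr15:88819504-88819554 on the plus strand, and for Syvn1 44 bases before it, in chr19:6046516-6046566 on the plus strand. For Calr it begins 162 bases before the start, in chr8:84847059-84847109 on the minus strand, for Derl3 156 bases before it, in chr10:75893226-75893276 on the plus strand, and the ERSE-II of Herpud1 begins 52 bases before the start, in chr8:94386361-94386403 on the plus strand.
Hspa5: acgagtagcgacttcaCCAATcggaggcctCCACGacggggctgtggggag
Hsp90b1: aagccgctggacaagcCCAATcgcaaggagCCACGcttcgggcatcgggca
Hsp90b1 (nearer element): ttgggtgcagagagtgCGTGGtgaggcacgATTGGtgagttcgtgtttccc
Creld2: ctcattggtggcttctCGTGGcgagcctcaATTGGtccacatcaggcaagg
Syvn1: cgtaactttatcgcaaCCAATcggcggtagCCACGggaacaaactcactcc
Calr: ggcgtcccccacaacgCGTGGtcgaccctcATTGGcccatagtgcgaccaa
Derl3: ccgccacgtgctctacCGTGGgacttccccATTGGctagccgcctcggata
Herpud1: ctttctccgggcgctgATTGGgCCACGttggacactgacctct

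The half-site CCACG, with or without the rest of an element, was present in 22 of the 26 genes, against 32.8% of all windows. The 22 include by construction the 9 genes with an ERSE and the 2 with an ERSE-II, since both elements contain it. The UPRE, TGACGTGG, which is bound by XBP1 and ATF6 and whose end CGTGG is the reverse complement of CCACG, was found in 0 of the 26 genes and in 0.676% of all windows. The AhR response element, TNGCGTG, which shares the letters CGTG with the half-site, was present in Edem1 and Sec61b, against 5.07% of all windows. The Edem1 match lies in chr6:108828391-108828424 on the plus strand, inside the gene, which spans chr6:108824045-108859356. Its window therefore belongs to a start site within the gene. These matches are descriptions of the letters in these windows and were not tested for binding.

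Between 46306518 and 74336255 counts were made per library, and 3 counts corresponded to 0.0425 to 0.0676 CPM, that is counts scaled to library size, which covers counting error only. Levels of a gene are compared between livers in CPM on TMM-scaled library totals, and levels of different genes in FPKM, which is per length. Differences are log2 fold changes (FC) of the first group over the second with their SE, from edgeR, and a gene was called at an adjusted P under 0.05 over all 14038 genes. Ahr itself read 20.1, 16.6 and 18.3 CPM in WT and 65.5, 41.3 and 63.3 CPM in Ahr HKO on the control diet, but a count over the whole gene lies mostly outside the deleted exon and does not check the deletion. Cyp1a2, a target gene of AhR, read 617, 398 and 456 CPM in WT and 90.7, 112 and 258 CPM in Ahr HKO on the control diet (log2 FC -1.67 ± 0.40 SE, adjusted P = 0.0197). On ethanol it read 1212, 1061 and 992 CPM in WT and 629, 684 and 658 CPM in Ahr HKO (-0.73 ± 0.12 SE, adjusted P = 0.0433). Cyp1a2 so was lower in the libraries labelled Ahr HKO within each diet. Ethanol raised it in WT (1.16 ± 0.18 SE, adjusted P = 0.0137) and in Ahr HKO (2.09 ± 0.39 SE, adjusted P = 0.00884). The Ahr HKO livers on ethanol stood above all 3 WT livers on the control diet. The hepatocyte markers Alb, Ttr, Apoa1, Apob and Serpinc1 summed to between 67037 and 109670 CPM in the 12 livers. These are whole livers, in which fewer cells of a type and less RNA per cell cannot be told apart.

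On the control diet, ER chaperone genes were higher in Ahr HKO than in WT livers. Of the 32 genes, 27 rose and 0 fell in edgeR, where 15.4% of all tested genes were called higher and 14.2% lower. The median log2 FC of the 32 was 1.03, and that of all tested genes was -0.00096. Creld2 rose most, 10.4-fold, followed by Syvn1 with 5.85-fold and by Hspa5 and Hyou1 with 5.11-fold and 5.10-fold. The CPM of the groups did not overlap, with Ahr HKO higher, for 28 genes, and with Ahr HKO lower for 1 gene, Derl2, against 23.2% and 24.1% of all tested genes. The genes not called were the sensors Ern1 and Atf6, the lectin chaperone Canx, and the degradation genes Derl2 and Derl3. The plot of levels by liver shows this across the roles.

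**Figure D1:**
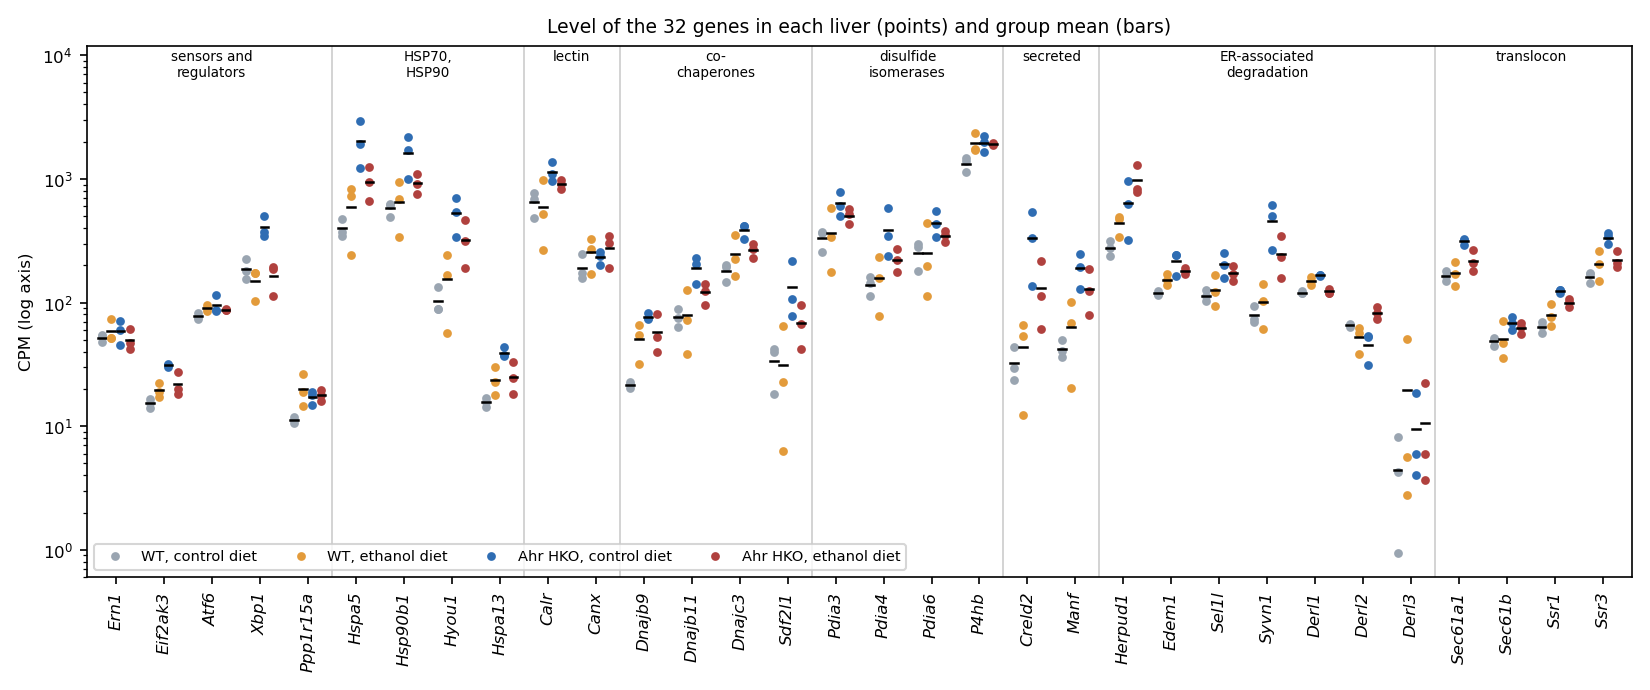
CPM (log axis) of the 32 genes in each of the 12 livers, grouped by role; points are livers, coloured by group, and black bars are the means of 3 livers. The livers of Ahr HKO on the control diet lie above those of WT on the control diet without overlap for 28 genes, while Ern1, Canx and Derl3 overlap and Derl2 lies below.

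The HSP70 and HSP90 chaperones rose as a whole role, 4 of 4, with a median log2 FC of 1.92. Hspa5 (chr2:34772090-34776529 in mm10), the BiP chaperone that holds unfolded chains and keeps the sensors inactive, read 372, 476 and 345 CPM in WT and 2949, 1218 and 1921 CPM in Ahr HKO livers (log2 FC 2.35 ± 0.33 SE, adjusted P = 0.00289). The lowest Ahr HKO liver was above the highest WT liver. Hsp90b1, the ER form of HSP90, read 632, 618 and 492 CPM in WT and 2183, 1006 and 1704 CPM in Ahr HKO livers (log2 FC 1.49 ± 0.28 SE, adjusted P = 0.00821). Hyou1, a large relative of HSP70 that helps BiP to exchange its nucleotide, went from 88.7, 133 and 87.9 CPM to 696, 336 and 543 CPM (log2 FC 2.35 ± 0.30 SE, adjusted P = 0.00223). In these 3 genes the second Ahr HKO liver was the lowest of its group and the first the highest. Hspa13, a small microsomal HSP70 relative at a low level, was more even, with 15.7, 14.4 and 17.0 CPM in WT and 37.7, 36.6 and 43.8 CPM in Ahr HKO livers (log2 FC 1.33 ± 0.11 SE, adjusted P = 0.000912).

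Co-chaperones rose in 4 of 4 genes, with a median log2 FC of 1.58. Dnajb9 (ERdj4), a J-domain partner of BiP, read 20.3, 21.8 and 22.8 CPM in WT and 73.6, 74.9 and 82.2 CPM in Ahr HKO livers (log2 FC 1.83 ± 0.10 SE, adjusted P = 0.000412). Its livers were nearly even within each group, with a highest over lowest ratio of 1.12 in both. Sdf2l1, which works with the J-domain proteins, read 40.0, 41.8 and 18.2 CPM in WT and 216, 78.5 and 107 CPM in Ahr HKO livers (log2 FC 2.00 ± 0.45 SE, adjusted P = 0.015), and varied far more between livers. Dnajb11 (ERdj3), which hands unfolded chains to BiP, had a log2 FC of 1.34 ± 0.21, and Dnajc3 (P58IPK), an ER J-domain protein first known as a kinase inhibitor, one of 1.10 ± 0.16.

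The secreted ER stress proteins had the largest median log2 FC of the 8 roles, 2.78. Creld2 (chr15:88819646-88826681), whose product is a cysteine-rich ER protein released under ER stress, read 29.3, 43.8 and 23.8 CPM in WT and 535, 135 and 336 CPM in Ahr HKO livers (log2 FC 3.38 ± 0.50 SE, adjusted P = 0.00368). Manf, a trophic factor retained by BiP and released under ER stress, read 40.3, 50.2 and 36.3 CPM in WT and 247, 129 and 193 CPM in Ahr HKO livers (log2 FC 2.17 ± 0.25 SE, adjusted P = 0.00162). Neither gene overlapped between the groups, and Creld2 differed 3.96-fold between the highest and the lowest Ahr HKO liver.

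Disulfide isomerases, which form and rearrange disulfide bonds, rose in 4 of 4 genes with a smaller median log2 FC of 0.88. Pdia4 (ERp72) read 143, 161 and 113 CPM in WT and 579, 238 and 345 CPM in Ahr HKO livers (log2 FC 1.48 ± 0.32 SE, adjusted P = 0.013). P4hb, the classical isomerase PDI and the member with the highest level per length in WT livers, read 1468, 1384 and 1144 CPM in WT and 2239, 1638 and 1999 CPM in Ahr HKO livers (log2 FC 0.56 ± 0.17 SE, adjusted P = 0.0459). Pdia3 (ERp57), the partner of the lectin chaperones, had a log2 FC of 0.94 ± 0.21, and Pdia6 (P5), which acts with BiP, one of 0.81 ± 0.24. The lectin chaperones bind sugar-tagged chains, and 1 of 2 was called. Calr, the soluble one, read 685, 775 and 484 CPM in WT and 1362, 967 and 1096 CPM in Ahr HKO livers (log2 FC 0.82 ± 0.21 SE, adjusted P = 0.0253). Canx, the membrane-bound one, read 172, 246 and 157 CPM and 257, 201 and 238 CPM, overlapping, and was not called (log2 FC 0.28 ± 0.19 SE, adjusted P = 0.309). All told, 15 of the 16 folding genes rose.

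ER-associated degradation, which pulls misfolded proteins out of the ER to the proteasome, rose in 5 of 7 genes with a median log2 FC of 0.87. Syvn1 (HRD1; chr19:6046576-6053718), the ubiquitin ligase at its core, read 73.0, 93.8 and 69.8 CPM in WT and 619, 264 and 497 CPM in Ahr HKO livers (log2 FC 2.55 ± 0.31 SE, adjusted P = 0.00198). Sel1l, which holds that ligase in place, rose less, with a log2 FC of 0.84 ± 0.18, and Edem1, which trims the sugars of proteins bound for degradation, had one of 0.87 ± 0.16. Herpud1, a stress-induced partner of the ligase, read 313, 238 and 277 CPM in WT and 954, 323 and 629 CPM in Ahr HKO livers (log2 FC 1.21 ± 0.35 SE, adjusted P = 0.0395), with the second Ahr HKO liver close to the highest WT liver. The 3 derlins, membrane proteins of the same exit route, had different values, and their differences from each other were not tested. Derl1 read 119, 123 and 119 CPM in WT and 168, 167 and 164 CPM in Ahr HKO livers, a small and even rise (log2 FC 0.47 ± 0.088 SE, adjusted P = 0.00779). Derl2 read 67.4, 65.9 and 63.1 CPM in WT and 31.4, 53.4 and 52.2 CPM in Ahr HKO livers and was not called in edgeR (log2 FC -0.51 ± 0.20 SE, adjusted P = 0.0896). DESeq2 did call it lower (log2 FC -0.516, adjusted P = 0.0442). Derl3, which had the lowest FPKM of the 32 genes in WT, read 4.28, 8.12 and 0.940 CPM and 18.5, 5.97 and 4.05 CPM, overlapping, and was not called (log2 FC 1.09 ± 0.78 SE, adjusted P = 0.333).

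Sensors and regulators rose in 3 of 5 genes, with a median log2 FC of 0.61. Xbp1 (chr11:5520641-5525993), the transcription factor made from the mRNA that IRE1 splices, read 154, 225 and 179 CPM in WT and 371, 344 and 503 CPM in Ahr HKO livers (log2 FC 1.13 ± 0.20 SE, adjusted P = 0.00695). Eif2ak3 read 15.5, 16.7 and 14.1 CPM in WT and 31.2, 31.8 and 30.1 CPM in Ahr HKO livers (log2 FC 1.01 ± 0.092 SE, adjusted P = 0.00103). Ppp1r15a (GADD34), which directs a phosphatase to eIF2 and so ends the PERK signal, had a log2 FC of 0.61 ± 0.12. By contrast, Ern1 read 48.2, 54.1 and 53.4 CPM in WT and 44.9, 71.2 and 60.3 CPM in Ahr HKO livers (log2 FC 0.18 ± 0.17 SE, adjusted P = 0.448), with overlap. For Atf6 the values were 75.7, 82.8 and 73.9 CPM and 87.6, 85.0 and 114 CPM (log2 FC 0.31 ± 0.14 SE, adjusted P = 0.138), where the groups did not overlap but the test was not passed. Translocon genes rose in 4 of 4, with a median log2 FC of 0.95. The channel subunits Sec61a1 and Sec61b had log2 FCs of 0.93 ± 0.11 and 0.49 ± 0.12, and Ssr1 and Ssr3, of the translocon-associated TRAP complex, ones of 0.97 ± 0.11 and 1.05 ± 0.13.

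Of the 27 calls, 19 held whichever of the 6 livers was omitted, and the count ran from 19 without the third WT liver to 27 without the second Ahr HKO liver. P4hb, Pdia6 and Herpud1 lost the call in every such fit except the one without the second Ahr HKO liver, with adjusted P values of up to 0.163, 0.117 and 0.123. Calr lost it without the first or the third WT liver or the first Ahr HKO liver (up to 0.0725), Sec61b without the second or the third WT liver or the first Ahr HKO liver (up to 0.0764), and Pdia3, Pdia4 and Sel1l without the third WT liver (0.0501, 0.0501 and 0.053). An FC above 1.5 in addition left 24 calls, without P4hb, Sec61b and Derl1. Under the remaining settings 5 calls were lost at least once, among them those of 3 of the 4 isomerases and 1 of the 4 translocon genes. P4hb and Pdia6 lost theirs under upper-quartile scaling and with no filter on low counts, P4hb also in limma with a pseudocount of 0.1, and Pdia6, Calr, Pdia3 and Sec61b with all 12 libraries in one fit. Among markers of other liver cells, Kupffer cell genes were called in 0 of 6 in this comparison, with summed levels of 232 to 286 CPM in WT and 194 to 564 CPM in Ahr HKO livers, and hepatocyte genes in 0 of 5. The endothelial marker Pecam1 (log2 FC 0.64) and the cholangiocyte marker Epcam (2.28) were called higher, as 1 of 6 and 1 of 4 genes of their lists. Stellate cell genes were called in 0 of 6 and T and NK cell genes in 0 of 3. In the list of B and plasma cells, which carry much ER, Sdc1 was called higher (0.80) and Cd79a lower (-1.73). Sdc1 read 132 to 301 CPM in the 12 livers, far above the rest of its list. The plasma cell genes Jchain and Mzb1 stayed at or under 3.46 CPM and 0.472 CPM, and Cd79a, Cd79b and Ms4a1 at or under 1.33 CPM. Which cells held the Sdc1 RNA was not tested. No marker was at 3 counts or under in all libraries. The part of these cells in the result was not tested.

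In WT livers, ethanol raised 2 of the 32 genes and lowered 0 in edgeR, where 4.84% of all tested genes were called higher and 4.63% lower. The share called higher was close to that of all genes in this test. At an unadjusted P under 0.05, 9 of the 32 genes were higher, as were 1910 of the 14006 other genes. DESeq2 called 7 of the 32 higher, where it called 1190 of the 14038 genes higher, and limma called 0 of the 32. The median log2 FC of the 32 was 0.34, and that of all tested genes 0.027. Dnajb9 read 31.6, 54.4 and 65.4 CPM on ethanol (log2 FC 1.24 ± 0.25 SE, adjusted P = 0.0268), all above the 20.3 to 22.8 CPM on the control diet. Ppp1r15a went from 11.2, 10.6 and 11.9 CPM on the control diet to 18.8, 14.5 and 26.2 CPM on ethanol (log2 FC 0.83 ± 0.20 SE, adjusted P = 0.0467), again without overlap. The other 30 genes were not called. Hspa5 read 244, 721 and 827 CPM on ethanol, 1 liver below and 2 above all control livers (log2 FC 0.60 ± 0.41 SE, adjusted P = 0.399). The 5 genes nearest to the threshold without passing it were Herpud1 with 341, 477 and 494 CPM (log2 FC 0.68 ± 0.18 SE, adjusted P = 0.0582), Derl1 with 162, 139.5 and 148 CPM (log2 FC 0.33 ± 0.087 SE, adjusted P = 0.0594), Edem1 with 139.6, 151 and 169 CPM (log2 FC 0.38 ± 0.10 SE, adjusted P = 0.0623), P4hb with 1746, 1725 and 2347 CPM (log2 FC 0.55 ± 0.17 SE, adjusted P = 0.0927) and Hspa13 with 17.8, 22.9 and 29.9 CPM (log2 FC 0.60 ± 0.19 SE, adjusted P = 0.0927).

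The count went from 2 to 0 without any 1 of the 3 control livers or without the third ethanol liver, to 1 without the second ethanol liver and to 5 without the first. Dnajb9 lost its call in 5 of 6 such fits, all but the one without the first ethanol liver, with adjusted P values of up to 0.0999, and Ppp1r15a in 5 of 6, all but the one without the second ethanol liver, with values of up to 0.144. In the same comparison the stellate cell markers Lrat (log2 FC 1.03) and Dcn (0.55) and the B and plasma cell list's Sdc1 (0.69) were called higher and the hepatocyte marker Apoa1 (-1.08) lower, while 0 of 6 Kupffer cell, 0 of 6 endothelial, 0 of 3 T and NK cell and 0 of 4 cholangiocyte genes were called. Kupffer cell genes summed to 202, 477 and 205 CPM in the 3 ethanol livers. The part of these cells was not tested.

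On the ethanol diet, 0 of the 32 genes differed between Ahr HKO and WT livers at an adjusted P under 0.05 in edgeR, where 0.712% of all tested genes were called higher and 0.392% lower. At an unadjusted P under 0.05, 4 genes were higher and 1 lower, against 9.75% and 11.3% of all tested genes. DESeq2 called 3 higher, Herpud1, Syvn1 and Derl2, and 1 lower, Derl1, where it called 5.33% and 5.96% of the genes it tested. Non-overlapping groups numbered 4 with Ahr HKO higher and 1 with Ahr HKO lower, where all tested genes gave 13.7% and 14.2%, so that the 32 genes did not exceed that background. The median log2 FC of the 32 was 0.33, and that of all tested genes -0.0076. Herpud1 read 341, 477 and 494 CPM in WT and 790.2, 1300.0 and 836 CPM in Ahr HKO livers (log2 FC 1.16 ± 0.24 SE, adjusted P = 0.0737), the nearest to the threshold. Syvn1 read 60.7, 103 and 141 CPM in WT and 159, 345 and 235 CPM in Ahr HKO livers (log2 FC 1.28 ± 0.37 SE, adjusted P = 0.127). For Hspa5, which had differed 5.11-fold on the control diet, the Ahr HKO livers read 663, 1242 and 943 CPM and overlapped the WT livers (log2 FC 0.67 ± 0.45 SE, adjusted P = 0.425). A missing call does not show that the genotypes were alike. The count was 0 in each of the 6 fits without a liver. In this comparison 0 markers of any of the 7 cell type lists were called, and Kupffer cell genes summed to 137 to 165 CPM in Ahr HKO and 202 to 477 CPM in WT livers.

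**Figure D2:**
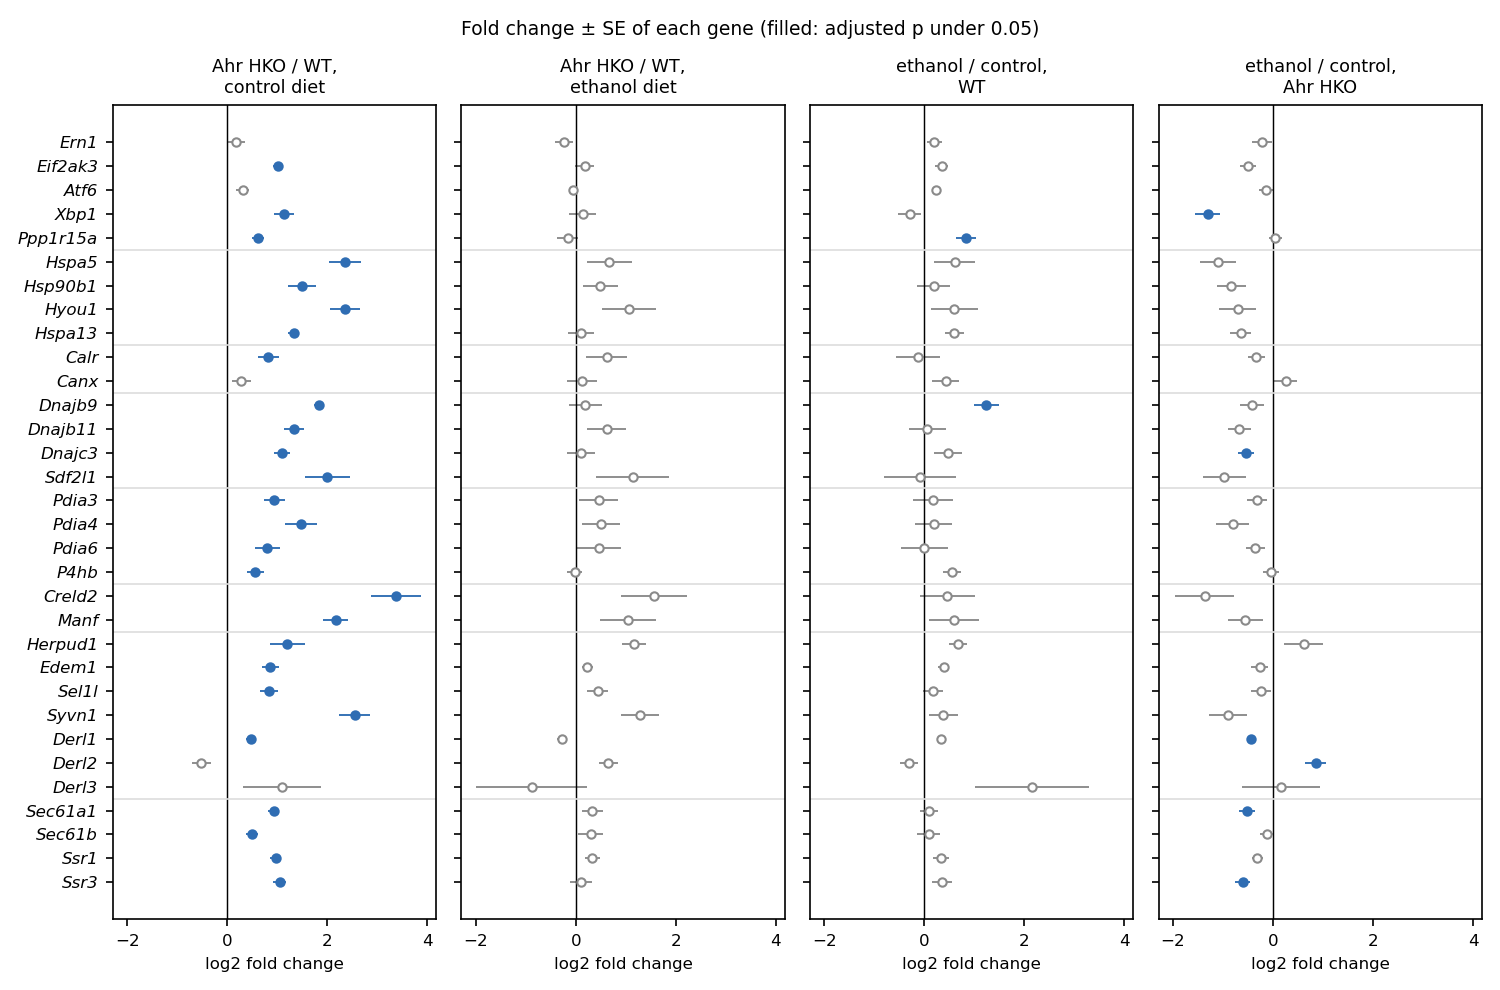
Log2 fold change with its SE for each of the 32 genes, ordered by role, in 4 comparisons of 3 against 3 livers; filled blue points have an adjusted P under 0.05 in edgeR and open grey points do not. Filled points number 27 between the genotypes on con, 0 between them on EtOH, 2 for ethanol in WT and 6 for ethanol in Ahr HKO.

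In Ahr HKO livers, ethanol lowered 5 of the 32 genes and raised 1 in edgeR, where 15.9% of all tested genes were called lower and 14.9% higher. The share called lower was close to that of all genes in this test alone. At an unadjusted P under 0.05, 13 of the 32 genes were lower, as were 3180 of the 14006 other genes. The count called lower depended on the setting, from 1 with the liver number as a block to 14 in DESeq2. The median log2 FC of the 32 was -0.42, and that of all tested genes -0.017. This comparison shares its control livers with that of the genotypes on the control diet, so the values of both are given side by side and not as support for each other. Xbp1 fell most among the calls, to 113, 195 and 187 CPM from 371, 344 and 503 CPM on the control diet (log2 FC -1.301 ± 0.25 SE, adjusted P = 0.00979), without overlap. Its ethanol livers lay between the lowest and the highest of the 6 WT livers of both diets, which held 154, 225 and 179 CPM on the control diet and 104, 174 and 172 CPM on ethanol. Derl1 fell from 168, 167 and 164 CPM to 120.0, 129.7 and 120.4 CPM (log2 FC -0.43 ± 0.10 SE, adjusted P = 0.016), and Dnajc3 from 415, 328 and 416 CPM to 229, 299.5 and 269 CPM (log2 FC -0.54 ± 0.16 SE, adjusted P = 0.0402). In the translocon, Ssr3 fell to 193, 259 and 209 CPM (log2 FC -0.61 ± 0.16 SE, adjusted P = 0.0263) and Sec61a1 to 179.5, 265 and 208 CPM (log2 FC -0.52 ± 0.16 SE, adjusted P = 0.0477). Derl2 (chr11:71007440-71019841) was the gene that rose, to 91.7, 82.5 and 73.0 CPM from 31.4, 53.4 and 52.2 CPM (log2 FC 0.85 ± 0.21 SE, adjusted P = 0.0225), the opposite direction to Derl1. Hspa5 read 663, 1242 and 943 CPM on ethanol, against 2949, 1218 and 1921 CPM, and was just outside the threshold (log2 FC -1.10 ± 0.36 SE, adjusted P = 0.0557), as was Eif2ak3 (log2 FC -0.50 ± 0.16 SE, adjusted P = 0.0524). Herpud1 read 790.2, 1300.0 and 836 CPM on ethanol, the highest mean of its 4 groups, and was not called (log2 FC 0.62 ± 0.39 SE, adjusted P = 0.266).

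Xbp1 alone kept its call in each of the 6 fits without a liver and in every other setting tried. The count was 3 without the first or the third control liver, 11 without the second, 2 without the first or the third ethanol liver and 7 without the second. Derl1 lost its call without the third ethanol liver (adjusted P 0.0648), Derl2 without the first or second ethanol liver (up to 0.0622), and Ssr3 without the first or the third liver of either diet (up to 0.0836). Dnajc3 lost it in all fits but that without the second control liver (up to 0.11), and Sec61a1 in all but that without the second ethanol liver (up to 0.131). DESeq2 called 15 of the 32, of which 14 were lower. Of the 14038 genes it called 2576 lower and 2563 higher, so that the share of the 32 called lower was above that of all genes. Kupffer cell markers fell in the same livers in 6 of 6 genes, among them Adgre1 (log2 FC -2.07), Marco (-3.90) and Clec4f (-0.90), with sums of 194 to 564 CPM on the control diet and 137 to 165 CPM on ethanol. Endothelial markers fell in 3 of 6 genes, with sums of 242 to 266 CPM on the control diet and 168 to 187 CPM on ethanol, and Epcam fell (-1.96), 1 of 4 cholangiocyte genes. Stellate cell genes split, with Des higher (0.61) and Pdgfrb lower (-0.99), and the hepatocyte markers Serpinc1 (0.58) and Ttr (0.81) were higher, while 0 of 6 B and plasma cell and 0 of 3 T and NK cell genes were called. Their part in the values of the 32 genes was not tested.

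The interaction of genotype and diet, fitted on all 12 livers, asks whether the ethanol change in Ahr HKO differed from that in WT. It was negative, meaning a lower ethanol change in Ahr HKO, for 7 of the 32 genes and positive for 1, where 11.1% of all tested genes had a negative and 11.2% a positive call. The median over the 32 was -0.76 on the log2 scale, over all tested genes -0.025, and 31 of 32 estimates were below 0. Dnajb9 had the most negative of the calls (-1.64 ± 0.37 SE, adjusted P = 0.0112), with means of 21.7 and 50.5 CPM in WT on the control and ethanol diets and of 76.9 and 57.6 CPM in Ahr HKO. Hspa13 (-1.23 ± 0.30 SE, adjusted P = 0.0155), Ssr3 (-0.95 ± 0.26 SE, adjusted P = 0.0258), Eif2ak3 (-0.83 ± 0.22 SE, adjusted P = 0.0192) and Derl1 (-0.75 ± 0.12 SE, adjusted P = 0.00189) followed. Edem1 (-0.64 ± 0.20 SE, adjusted P = 0.0399) and Ssr1 (-0.63 ± 0.19 SE, adjusted P = 0.0374) had the smallest. Derl2 was positive (1.17 ± 0.29 SE, adjusted P = 0.0165), with means of 65.4 and 52.3 CPM in WT and 45.7 and 82.4 CPM in Ahr HKO. By role, 2 of 7 degradation genes, 2 of 4 translocon genes, 2 of 16 folding genes and 1 of 5 sensors had a negative call. For Hspa5 the estimate was larger but so was its error (-1.68 ± 0.60 SE, adjusted P = 0.0662). Derl1, Derl2, Dnajb9, Eif2ak3 and Hspa13 kept their calls in each of the 12 fits without a liver, whereas Ssr3 lost it without the third WT control, second WT ethanol, first Ahr HKO control, or the first or the third Ahr HKO ethanol liver. Ssr1 kept it without the first WT control, first WT ethanol or second Ahr HKO control liver and lost it in the other 9 fits, and Edem1 kept it without the first WT ethanol or second Ahr HKO control liver and lost it in the other 10. The count was 16 without the first WT ethanol liver, 11 without the second Ahr HKO control liver, and 5 without the third WT control liver, the first Ahr HKO control liver, or the first or the third Ahr HKO ethanol liver. Among the markers, the interaction was negative for 2 of 6 Kupffer cell genes, Marco (-4.62) and Adgre1 (-2.33), for Pecam1 (-0.93), Pdgfrb (-0.88) and Epcam (-2.36), and positive for Apoa1 (0.93), and their part in the result was not tested.

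Many of the 32 genes were high or low in the same livers of a group. Within WT on ethanol, the highest liver exceeded the lowest by a median of 1.96-fold over the 32 genes, against 1.32-fold over all tested genes with counts in all 3 livers, and 24 of the 32 exceeded 1.5-fold. The third liver was the highest in 28 of the 32 genes and the first the lowest in 26, while over all tested genes the third was highest in 33.5% and the first lowest in 32.9%. The medians were smaller elsewhere, 1.301-fold in WT on the control diet, 1.52-fold in Ahr HKO on the control diet and 1.46-fold in Ahr HKO on ethanol, against 1.23-fold, 1.31-fold and 1.26-fold over all tested genes. In Ahr HKO on the control diet the first liver was highest in 22 genes and the second lowest in 26, and in Ahr HKO on ethanol the second was highest in 25 and the first lowest in 26. Sdf2l1 shows the span within WT on ethanol, with 6.32, 22.8 and 64.0 CPM. Derl3 read 50.8 CPM in the third liver of that group, above the other 11 livers, of which the highest held 22.2 CPM. Atf6 and P4hb varied least in Ahr HKO on ethanol, with 86.8, 86.8 and 88.5 CPM and 1942, 1917 and 1881 CPM. These shares are a description of 3 livers per group, and the part of any cell type in them was not tested.

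**Figure D3:**
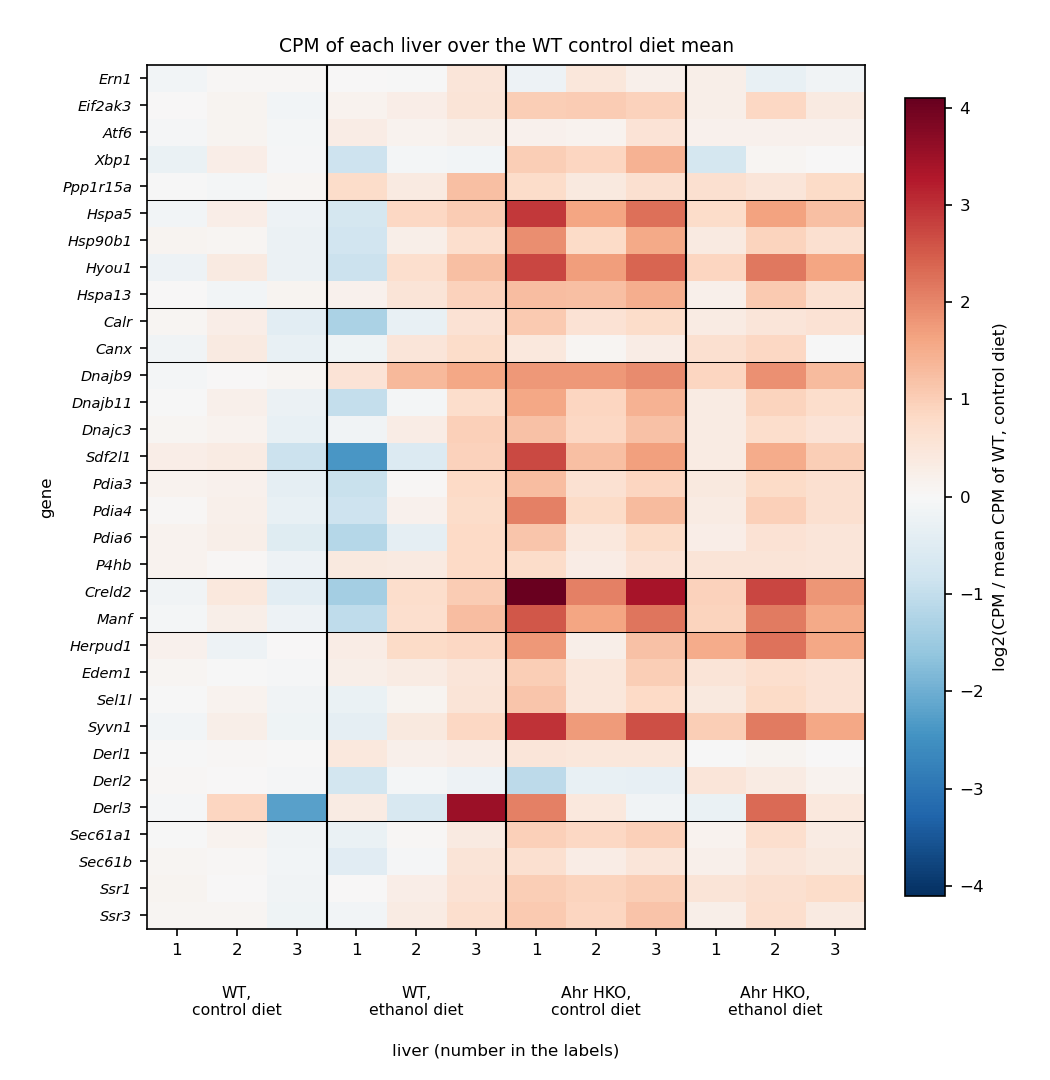
Log2 ratio of the CPM of each liver to the mean of WT on the control diet, for the 32 genes (rows, by role) in the 12 livers (columns, by group); red is higher and blue lower. Columns tend to change as a whole: within WT on ethanol the first liver is the lowest in 26 genes and the third the highest in 28.

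Per length, levels in the list spanned from the abundant isomerase P4hb to the rare Derl3. In WT on the control diet the mean FPKM ran from 495 for P4hb and 314 for Calr through 199 for Hsp90b1 and 147 for Hspa5 down to 3.51 for Eif2ak3 and 3.12 for Derl3. The 3 sensors stood low in this order, with 12.3 FPKM for Ern1, 9.80 for Atf6 and 3.51 for Eif2ak3, whereas Xbp1 held 78.1. Summed over the 32 genes, FPKM was 2333, 2409 and 1884 in the WT livers on the control diet and 6608, 3908 and 4918 in the Ahr HKO livers. On ethanol the sums were 1892, 3181 and 4171 in WT and 3094, 4338 and 3446 in Ahr HKO, so that the genotypes overlapped. The 4 HSP70 and HSP90 chaperones held 321 to 415 FPKM in WT and 941 to 2024 FPKM in Ahr HKO livers on the control diet. The 7 degradation genes held 240 to 272 FPKM and 379 to 809 FPKM in the same groups, and the 5 sensors and regulators 94.2 to 125 FPKM and 195 to 245 FPKM.

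**Figure D4:**
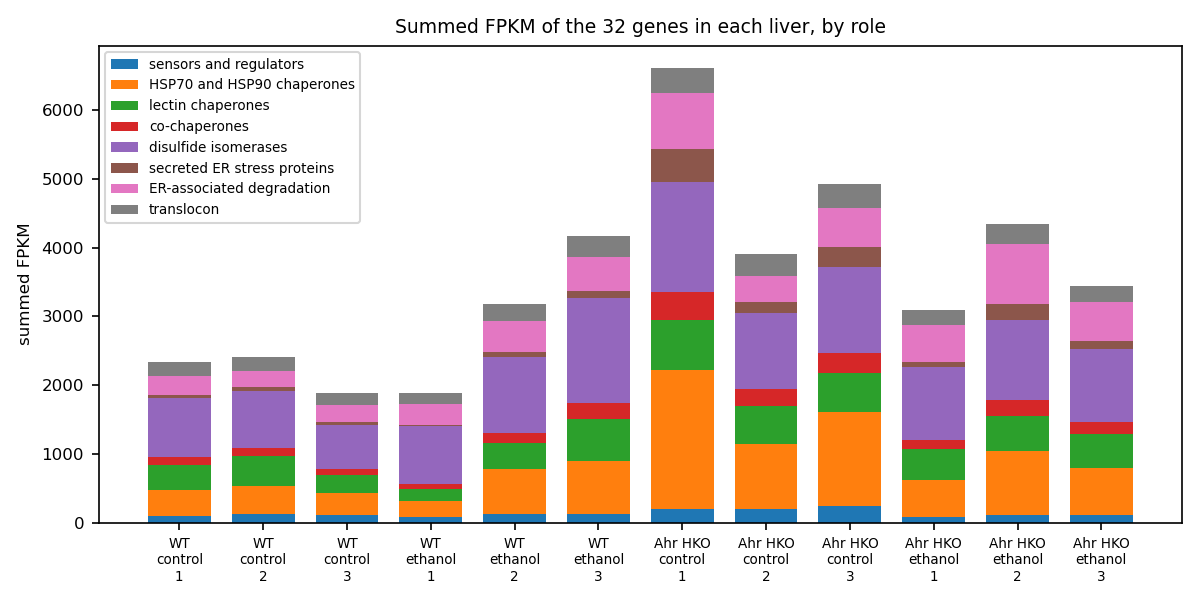
Summed FPKM of the 32 genes in each of the 12 livers, stacked by role, on an axis that starts at 0. The 3 Ahr HKO livers on the control diet, 3908 to 6608, lie above the 3 WT livers on that diet, 1884 to 2409, and on ethanol the genotypes overlap.

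Other genes of the ER stress pathway, taken as whole lists, were read beside the 32. In the PERK branch and its CHOP targets, 3 of 7 genes were called higher by ethanol in WT, against 4.84% of all tested genes. They were Nupr1 (log2 FC 2.83), Atf3 (3.65) and Ddit3 (1.83), the last of which codes for CHOP itself, a transcription factor of prolonged ER stress. Their levels varied between livers, with 6.05 ± 2.69, 9.47 ± 7.64 and 19.9 ± 9.07 CPM on ethanol (SD, n = 3). On the control diet they were 0.849 ± 0.327, 0.755 ± 0.0598 and 5.63 ± 0.378 CPM. The same list had 3 of 7 called higher in Ahr HKO on the control diet, Nupr1 (1.49), Ddit3 (1.02) and Atf4 (0.52), and 4 of 7 with a negative interaction. All tested genes gave 15.4% and 11.1% for these 2 kinds of call. Trib3, a pseudokinase induced by CHOP, was the 1 gene of the list called in Ahr HKO by ethanol, higher (1.92). Other transducers and proteases were called higher in 4 of 8 tested genes in Ahr HKO on the control diet, led by Creb3l2 (1.79), an ER-bound transcription factor related to ATF6, with Creb3 (0.47) and Creb3l1 (1.00). Ethanol lowered Creb3l2 (-1.03) and Creb3 (-0.66) in Ahr HKO, 2 of 8, and in WT 0 of 8 were called.

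The wider ER lists had smaller median changes than the 32 genes on the control diet. In Ahr HKO on the control diet 15.4% of all tested genes were called higher and 14.2% lower. There 10 of 19 other folding enzymes were called higher and 0 lower, with a median log2 FC of 0.43, among them Txndc11 (0.96), Calu (0.71) and Fkbp14 (0.84). Other degradation genes were called higher in 7 of 16 and lower in 0, with a median of 0.24, among them the mannosidase-like Edem3 (0.97) and the ubiquitin-conjugating enzymes Ube2g2 (1.302) and Ube2j1 (0.63). Other translocation and glycosylation genes were called higher in 11 of 19 and lower in 0, with a median of 0.42, among them the signal recognition receptor subunits Srprb (1.23) and Srpr (0.67) and the signal peptidase subunit Spcs2 (0.88). On the ethanol diet 0 genes of any of these lists were called between the genotypes in edgeR. Ethanol in WT called 0 of 19 folding enzymes, 1 of 16 degradation genes, Sel1l3 (-1.14), and 1 of 19 translocation genes, the oligosaccharyltransferase subunit Stt3b (0.71). All tested genes gave 4.84% higher and 4.63% lower. In Ahr HKO, ethanol lowered 2 of 19 folding enzymes, Dnajc10 (-0.87) and Calu (-0.60), 2 of 16 degradation genes, Edem3 (-0.77) and Ube2j1 (-0.31), and 3 of 19 translocation genes, and raised Sil1 (0.55), Rnf5 (0.65) and Edem2 (0.52). In that comparison 15.9% of all tested genes were called lower and 14.9% higher, so that these 3 lists did not exceed that background.

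Set against the promoter letters, 7 of the 9 genes with an ERSE were called higher in Ahr HKO on the control diet, with a median log2 FC of 1.10, and so were 15 of the 17 with a window and no ERSE, with a median of 0.97. The exceptions were Canx and Derl3 among the former and Derl2 and Ern1 among the latter. An element with a mismatch or another gap would not have been found by this search.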

How the data were processed

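RNA was measured in 12 whole livers by stranded poly-A RNA-seq. The authors deposited read counts per gene (mm10), not normalized, with FPKM values and TPM values per gene that they had scaled to length and depth. The TPM values were not used here. The submitters' processing notes name FastQC 0.11.7, Trimmomatic 0.38, HISAT2 2.1.0, Bowtie2 2.3.4.1 and StringTie 1.3.4d. How strand and reads shared between genes were counted is not given in the sources used here, so values of overlapping genes may include reads of a partner.

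The 32 genes and all lists were chosen with earlier results of these data known. All 32 are named, and of other lists at most 3 genes per list, direction and comparison, those with the lowest adjusted P. Counts were tested with the quasi-likelihood test of edgeR 4.0.16 (R 4.3.3) with TMM scaling, filterByExpr and Benjamini-Hochberg adjustment over 14038 genes, each comparison on its own 6 libraries and the interaction on all 12. CPM used TMM-scaled totals. Alternatives were DESeq2 1.42.0, upper-quartile scaling, no filter on low counts, at least 10 counts in every library, all 12 libraries in one fit, the liver number as a block, an FC above 1.5 in addition, leaving out each liver, and limma 3.58.1 on quantile-normalized log2(FPKM + 1) or log2(FPKM + 0.1). The fits were tested on simulated counts. Library totals ran from 46306518 to 74336255 counts. Of 66 pairs of libraries, 0 were identical. The labels number the livers within each group and also give each a liver code. Some codes recur across groups and do not always follow the numbers, and the labels do not say what a shared code or number marks. Promoter windows came from RefSeq (GRCm38.p6), and figures were drawn with matplotlib 3.10.9.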

Additional observations from a re-analysis of the deposited data

Results flagged for a closer look

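For 8 of the 32 genes the ethanol change differed between Ahr HKO and WT livers in the edgeR test of the difference itself, the interaction on the log2 scale (Ahr HKO change minus WT change, 12 livers). It was negative for Dnajb9 (-1.64), Hspa13 (-1.23), Ssr3 (-0.95), Eif2ak3 (-0.83), Derl1 (-0.75), Edem1 (-0.64) and Ssr1 (-0.63). It was positive for Derl2 (1.17). Of all tested genes, 11.1% had a negative and 11.2% a positive call. Edem1, Ssr1 and Ssr3 lost the call in 10, 9 and 5 of the 12 fits without a liver. With the liver number as a block, Edem1 and Ssr1 lost it as well. No group of 4 or more livers was present, so single livers were not tested as outliers.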

How the results depend on the processing

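With DESeq2 the count of the 32 genes called was 7 for ethanol in WT (2 in edgeR) and 4 for the genotypes on ethanol (0). It was 15 for ethanol in Ahr HKO (6) and 14 for the interaction (8). That of all genes was 2335 for ethanol in WT (1329) and 1521 for the genotypes on ethanol (155). It was 5139 for ethanol in Ahr HKO (4322) and 3977 for the interaction (3137). Between the genotypes on con DESeq2 called 28 of the 32 (27), with Derl2 lower, and 4859 of all genes (4161). For ethanol in WT, upper-quartile scaling and no filter each gave 1, and limma gave 0 at either pseudocount. For ethanol in Ahr HKO, at least 10 counts in every library gave 10, of which 9 were lower, where 2287 of 12317 genes were. Limma gave 12 and 10 with pseudocounts of 1 and 0.1, of which 11 and 9 were lower, where 2026 and 1943 of 13345 genes were. An FC above 1.5 in addition gave 3, of which 2 were lower, where 1643 of 14038 genes were. For the genotypes on ethanol, all 12 libraries in one fit called 575 of all genes, and limma 94 and 55. The cause was not tested. Between the genotypes on con, every count stayed within 1.5 times, except that of all genes without the second or the third WT liver. Adding an FC above 1.5 left 24 of the 27 calls, without P4hb (1.47-fold), Sec61b (1.41-fold) and Derl1 (1.39-fold). Apart from that FC and from leaving out a liver, 5 calls (P4hb, Pdia6, Calr, Pdia3 and Sec61b) were lost under at least 1 setting. No tested value changed direction.

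With the liver number as a block the counts of the 32 were 1 for ethanol in WT, 1, Herpud1, for the genotypes on ethanol and 1, Xbp1, for ethanol in Ahr HKO. That count was 25 between the genotypes on con, without P4hb and Pdia6, and 8 for the interaction, where Edem1 and Ssr1 were no longer called and Xbp1 and Ppp1r15a were. The counts of all genes were 517 for ethanol in WT and 245 for the genotypes on ethanol. The numbers were not taken to pair the livers: deviations of same-numbered livers correlated between -0.088 and 0.178, over 0.1 in 2 of 12 pairs, and 2 of 12 livers correlated best with their own number.

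Leaving out each liver in turn gave 0 to 5 of the 32 genes and 367 to 1026 of all genes for ethanol in WT, 19 to 27 and 2630 to 3748 between the genotypes on con, 0 and 7 (without the third Ahr HKO liver) to 189 for the genotypes on ethanol, 2 to 11 and 2588 to 3792 for ethanol in Ahr HKO, and 5 to 16 and 2267 to 3084 for the interaction. Depth sets a floor of at most 0.0676 CPM for 3 counts, and the lowest value of the 32 genes, Derl3 in a WT liver, was 0.940 CPM.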

Other observations

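Cytosolic and mitochondrial heat shock genes, which fold proteins outside the ER, were read as a list of 12. In Ahr HKO against WT on the control diet 15.4% of all tested genes were called higher in edgeR. Of the list, 5 of 12 were called higher and 0 lower, with a median log2 FC of 0.59. Among them were Hsp90aa1 (1.93), a cytosolic HSP90 with 91.1 ± 20.8 CPM in WT and 347 ± 65.3 CPM in Ahr HKO livers (SD, n = 3), Dnaja1 (0.61) and the small heat shock gene Hspb1 (1.95). Ethanol in Ahr HKO called 5 of 12 higher and 0 lower, against 14.9% of all tested genes called higher. The median was 0.86, where the 32 ER genes had a median of -0.42. Hspa8, the constitutive cytosolic HSP70, went from 1057 ± 183 to 2308 ± 320 CPM (log2 FC 1.13), and its partners Hsph1 (1.53) and Dnajb1 (1.22) were also called. Ethanol in WT called 1 of 12, Hspb1 (1.33), and 0 of 12 were called between the genotypes on ethanol or in the interaction.

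Outside the 32 genes, 22 genes of the table had an exact ERSE in their promoter window and 12 of them were tested. In Ahr HKO against WT on the control diet 15.4% of all tested genes were called higher. Of the 12, 5 were called higher, Hnrnpa3, Acnat2, Pan2, Ero1lb and Alg12, and 0 lower, with a median log2 FC of 0.38. These names were chosen after their values were seen. Ero1lb codes for an ER oxidase that keeps the disulfide isomerases oxidized, and Alg12 for an ER mannosyltransferase.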
